A study of Caenorhabditis elegans with 6 samples.

Results

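Neuropeptide-like protein (nlp) genes of Caenorhabditis elegans encode precursors of small secreted peptides that are neither FMRFamide-like nor insulin-like. The 65 genes described here are every protein-coding gene of the deposited table named nlp with a number, except nlp-24 to nlp-34. That group of 11, called epidermal here, includes genes expressed in the epidermis and known for defence against fungi and wounding. The 65 were taken from 46904 rows, of which 22389 carried read counts. Polyadenylated RNA was sequenced from adult worms on solid medium, 3 libraries from N2, the standard laboratory wild type, and 3 from N2-derived worms in which CRISPR had removed linc-4. This gene makes a long intergenic non-coding RNA (lincRNA), and the series concerns such RNAs in the germline and in the growth of the body. How much of linc-4 was removed, from how many clones, and how many worms went into a library was not stated in the labels.

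In the nervous system, a neuropeptide precursor enters the secretory pathway, is cut by proprotein convertases at basic residues, trimmed by a carboxypeptidase and often amidated at its end. The peptides are kept in dense core vesicles and act on G protein-coupled receptors, frequently at a distance from the cell that released them. In C. elegans such peptides set egg laying, sleep and arousal, locomotion, defecation and learning, and some are released by tissue other than neurons, such as the intestine. No sequence of a precursor was at hand, so lengths alone are given: the longest annotated coding sequence of the 65 genes encodes from 64 to 326 residues, with a median of 94 (Ensembl release 115, WBcel235).

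The libraries held from 3736372 reads in wild type 1 to 12790323 reads in linc-4 3. The deleted gene checked the labels: reads of linc-4 numbered 193, 345 and 234 in the wild type libraries, against 5, 1 and 1 after its deletion. Of the 65 nlp genes, 61 passed the filter on low counts and were tested, with 87 to 16960 reads each over the 6 libraries. In 55 of them all 6 libraries met the floor of the filter, and nlp-39 passed through its linc-4 libraries alone. The current name table matched all 65 identifiers and gives 6 of them another symbol, among them pdf-2 for nlp-37, mihp-1 for nlp-38, mihp-2 for nlp-42, srlf-1 for nlp-77 and cthd-1 for nlp-73, so membership rests on the names in the deposited table. Whether nlp-77 and nlp-73, under these other names, still count as neuropeptide genes was not settled here.

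Without linc-4, 11 of the 61 tested nlp genes were higher and none was lower (limma-voom, Benjamini-Hochberg adjusted p under 0.05 over all tested genes, 3 libraries against 3). The 11 were nlp-3, nlp-4, nlp-19, nlp-39, nlp-41, nlp-51, nlp-59, nlp-62, nlp-63, nlp-64 and nlp-66. Their rises ran from 1.43-fold for nlp-51 to 3.98-fold for nlp-39, and 5 of them were at least 2-fold, beside 5.84% of all tested genes called at that size. The share of tested members that rose was 18%, beside 11.5% of all 13778 tested genes; 7.18% of all tested genes fell. Before adjustment, 27 members had p under 0.05 for a rise and 2, nlp-12 and nlp-56, for a fall, beside 18.7% and 15.8% of all tested genes. The authors' deposited table had a rise for 7 of 63 members with an adjusted p and a fall for none, beside 6.59% of its genes higher and 4.91% lower, and all 7 are among the 11.

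The count of 11 depended on single libraries. It was 7 without wild type 1 (5.93% of all tested genes rose in that fit), 5 without wild type 3 (7.28% of all) and 3 without linc-4 2 (5.49% of all). With 3 of 61, or 4.92%, the share of members without linc-4 2 was below that of all genes. Scaling by upper quartiles gave 22 members that rose, beside 15% of all genes; under it the median of all tested genes was 0.10 on the log2 scale in place of -0.01.

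Most fitted changes of the nlp genes were small and above 0. The log2 fold change was above 0 in 54 of 61 tested members, or 88.5%, beside 48.8% of all tested genes. Its median was 0.37, beside -0.01 over all tested genes, and its quartiles were 0.19 and 0.59. With another scaling or model, or without any 1 library, 50 to 56 of the 61 were above 0; without a filter on low counts 58 of 64 were. The median was 0.31 to 0.48 across these settings. All 3 linc-4 libraries exceeded all 3 wild type libraries in 30 of the 61 (49.2%, beside 21.2% of all tested genes), and all 3 lay below in 3 (4.92%, beside 17.7%). These shares describe genes of the same 6 libraries, which are not independent of each other.

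**Figure D1:**
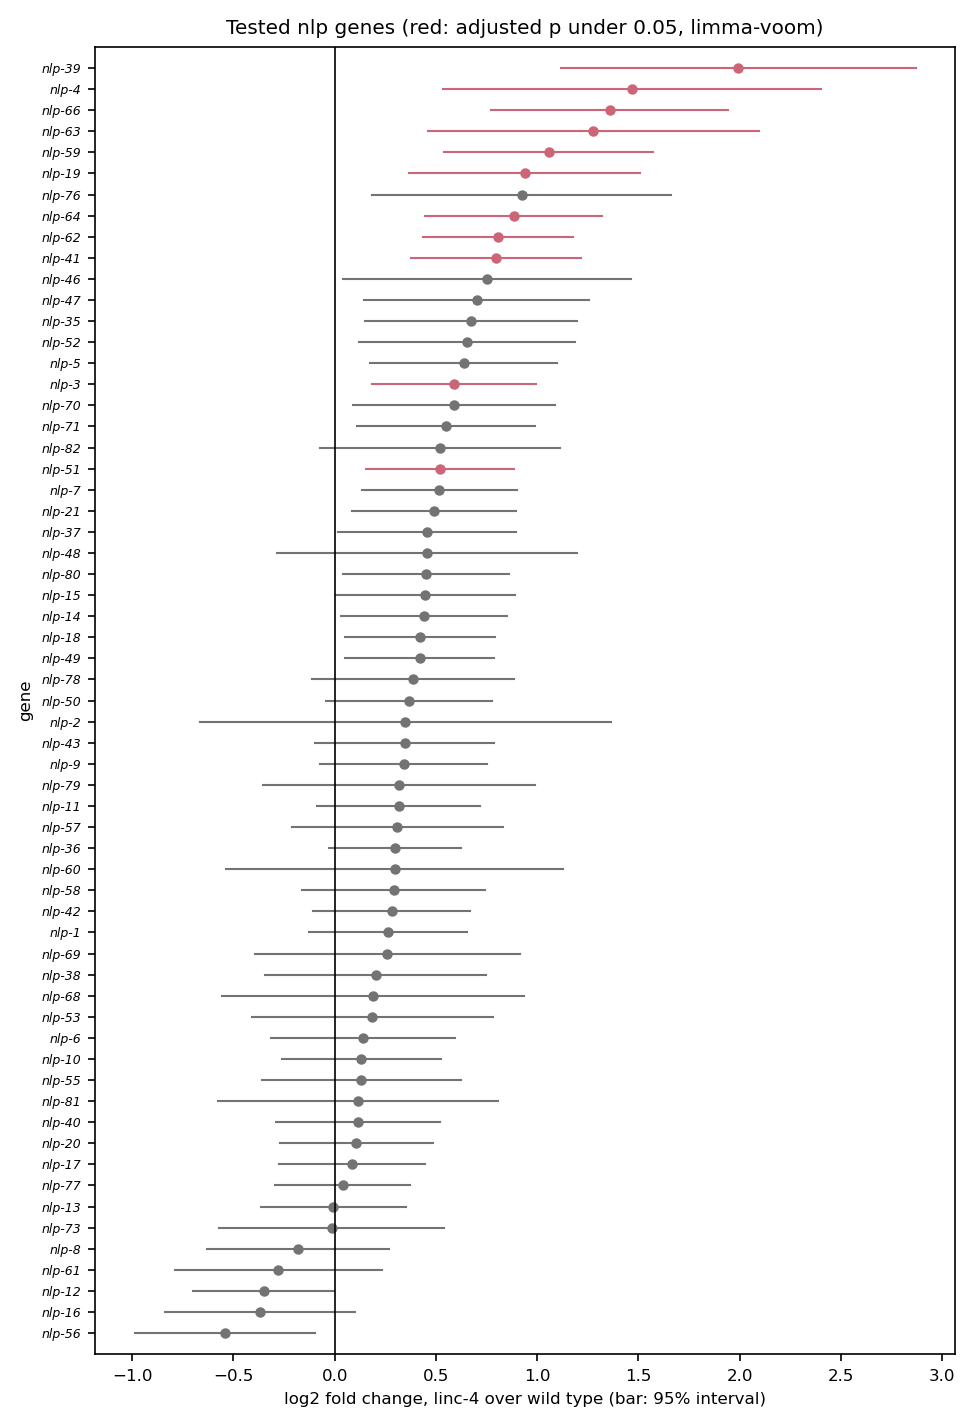
Fitted log2 fold change of each of the 61 tested nlp genes (x axis, linc-4 over wild type, 95% interval as a bar), sorted by value, with called genes in red. The 11 called genes lie between 0.52 and 1.99, and 54 of 61 points lie right of 0.

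The gene with a known part in egg laying among the called members is nlp-3, whose peptides stimulate egg laying together with serotonin from the HSN motor neurons. nlp-3 (WBGene00003741, chromosome X, 13177856 to 13178447, - strand, WBcel235) had 25.5, 26.2 and 17.7 CPM (counts scaled to a common library size) for wild type 1 to 3, against 32.5, 30.5 and 39.7 CPM for linc-4 1 to 3. All linc-4 libraries lay above all wild type ones, with wild type 3 the lowest and linc-4 3 the highest. The rise of nlp-3 was 1.51-fold (log2 fold change 0.59, SE 0.19, adjusted p = 0.044). nlp-7, whose peptides inhibit egg laying, was at 11.6, 16.4 and 13.9 CPM in wild type and 19.7, 19.9 and 20.8 CPM in linc-4. Its groups also did not overlap, and its log2 fold change was 0.52 (SE 0.18), but it did not pass (adjusted p = 0.058). The difference between nlp-3 and nlp-7 in response was not tested, and the fitted change of each lies inside the interval of the other.

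The largest fitted rise was that of nlp-39 (WBGene00008295, chromosome I, 12461645 to 12461925, + strand), with 3, 5 and 2 wild type reads against 18, 18 and 41 linc-4 reads in libraries 1 to 3. At this depth the wild type level, 0.631 ± 0.234 CPM (SD, n = 3), is close to that of 3 reads in the shallowest library, 0.771 CPM. The level in linc-4 was 2.70 ± 0.409 CPM, and the rise 3.98-fold with a 95% interval of 2.17 to 7.30 (log2 fold change 1.99, SE 0.41, adjusted p = 0.0063). nlp-4 (WBGene00003742, chromosome I, 10517324 to 10518055, - strand) was also read little, with 1.03, 3.20 and 1.80 CPM in wild type and 3.33, 6.54 and 7.46 CPM in linc-4. Its highest wild type library and its lowest linc-4 library nearly met. nlp-4 rose 2.77-fold with an interval of 1.45 to 5.28 (log2 fold change 1.47, SE 0.43, adjusted p = 0.033). nlp-63 (WBGene00044028, chromosome II, 10155413 to 10156220, + strand) had 1.54, 3.20 and 0.902 CPM against 3.97, 4.01 and 4.87 CPM, with wild type 2 nearest to the linc-4 libraries, and rose 2.42-fold (interval 1.38 to 4.27, log2 fold change 1.28, SE 0.38, adjusted p = 0.034). In each of these 3 genes fewer than 3 wild type libraries met the floor of the filter.

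nlp-66 had the smallest p of the members. It (WBGene00011141) lies on chromosome X from 11116107 to 11116823 (- strand), and had 4.37, 2.28 and 2.89 CPM in the wild type libraries, against 8.32, 8.17 and 7.0 CPM after the deletion. The linc-4 libraries lay close together and well above the highest wild type library, wild type 1. It rose 2.56-fold (log2 fold change 1.36, SE 0.27, adjusted p = 0.0056). nlp-59 (WBGene00008522, chromosome V, 14971436 to 14972419, + strand) had 5.40, 3.81 and 3.79 CPM against 9.09, 10.1 and 7.77 CPM. Its groups were apart too, and it rose 2.08-fold (log2 fold change 1.06, SE 0.24, adjusted p = 0.011). nlp-19 (WBGene00003757, chromosome X, 10958761 to 10959178, + strand) had 4.63, 2.89 and 3.25 CPM against 5.51, 7.72 and 6.93 CPM, and rose 1.92-fold (log2 fold change 0.94, SE 0.26, adjusted p = 0.028). Here the lowest linc-4 library, linc-4 1, was near the highest wild type library, wild type 1.

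The other called members had more reads than those above, except nlp-3, which had the most of the 11 (1350). They rose by less than 2-fold, as did nlp-3 and nlp-19. nlp-64 (WBGene00019734, chromosome X, 308762 to 311323, - strand) had 7.71, 9.59 and 7.04 CPM in wild type and 14.1, 17.5 and 14.2 CPM in linc-4, a rise of 1.84-fold (log2 fold change 0.88, SE 0.20, adjusted p = 0.011). nlp-62 (WBGene00018005, chromosome I, 5854261 to 5855047, - strand) had 13.6, 11.3 and 11.7 CPM against 20.4, 20.6 and 22.4 CPM, a rise of 1.75-fold (log2 fold change 0.81, SE 0.17, adjusted p = 0.0079). In both genes the spread within a group was small next to the gap between groups. nlp-41 (WBGene00007316, chromosome II, 14550913 to 14552476, + strand) had 16.2, 25.3 and 15.2 CPM against 31.1, 32.1 and 34.1 CPM, a rise of 1.74-fold (log2 fold change 0.80, SE 0.19, adjusted p = 0.015). Of its 380 exon bases, 8 are shared with mog-4 on the opposite strand, and mog-4 was at 41.6 CPM in wild type and 33.6 CPM in linc-4. nlp-51 (WBGene00011997, chromosome II, 11319241 to 11319691, - strand) was the call nearest the threshold, with 17.5, 14.9 and 18.6 CPM against 27.1, 23 and 22.8 CPM, a rise of 1.43-fold (log2 fold change 0.52, SE 0.17, adjusted p = 0.049).

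**Figure D2:**
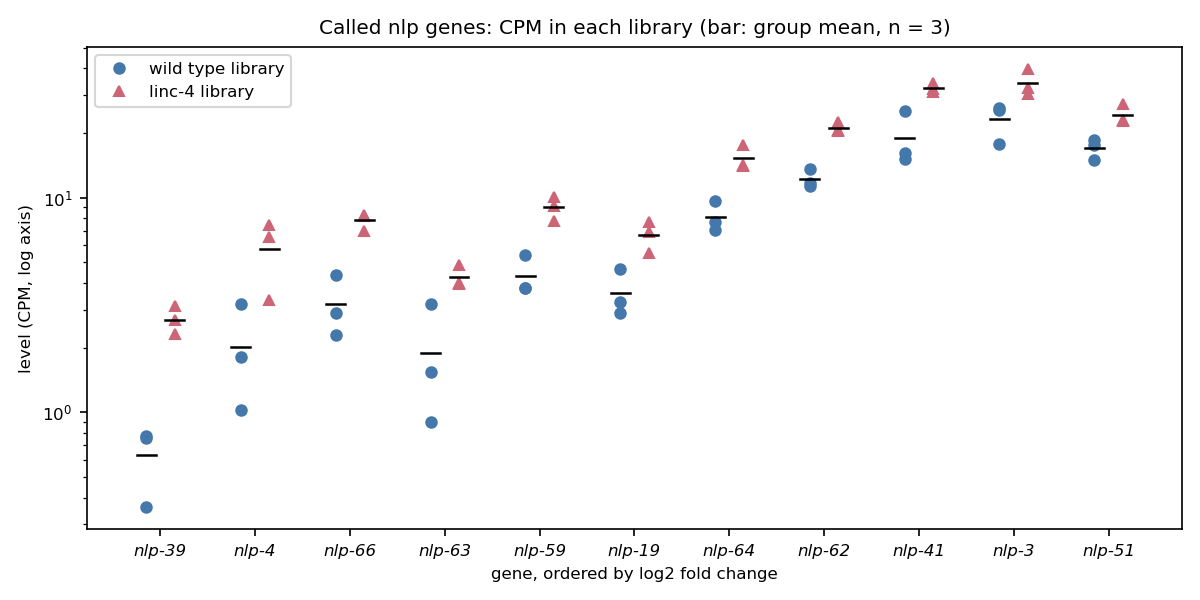
Level of the 11 called nlp genes in each library (y axis, CPM on a log scale; circles, wild type; triangles, linc-4; black bars, means of 3 libraries). In every gene the 3 linc-4 libraries lie above the 3 wild type ones, with the narrowest gaps, as a ratio, at nlp-4, nlp-3 and nlp-19.

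Leaving out each library in turn separated these calls. nlp-39, nlp-62 and nlp-66 passed in all 6 such fits, with a highest adjusted p of 0.028, 0.034 and 0.027. The same genes were tested in each of these fits, and nlp-39 was among them through its linc-4 libraries alone, so its 6 passes add no support to its call. nlp-59 and nlp-64 each passed in 5 of 6 and were lost without linc-4 2 (adjusted p = 0.05 after rounding, and 0.054). nlp-41 passed in 3 of 6 and was lost without wild type 1, wild type 3 or linc-4 2, with an adjusted p up to 0.07. nlp-4 and nlp-19 passed in 2 of 6; the highest adjusted p was 0.12 for nlp-4 (wild type 1 left out) and 0.096 for nlp-19 (linc-4 2 left out). nlp-3 and nlp-63 passed only without wild type 2, and their highest adjusted p was 0.17 and 0.15 (wild type 3 left out). nlp-51 passed in none of the 6 (adjusted p up to 0.15, without linc-4 1), and it was also lost with median-of-ratios scaling and with either other filter on low counts.

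Of the genes described here for a part in sleep or arousal, nlp-8, nlp-14, nlp-49 and nlp-2 were tested and not called, and nlp-22 and nlp-23 were not tested. nlp-8, a peptide gene of the ALA neuron in sleep after stress, was at 10.8, 17.5 and 17.1 CPM in wild type and 12.9, 15.6 and 12.3 CPM in linc-4. Its groups overlapped, with a log2 fold change of -0.18 (95% interval -0.63 to 0.27, adjusted p = 0.57). nlp-14, also of the ALA neuron and sleep after stress, was at 13.4, 13.7 and 12.1 CPM against 20.5, 19.3 and 14.7 CPM. Its groups did not overlap, but the change was not called (log2 fold change 0.44, interval 0.03 to 0.85, adjusted p = 0.12). nlp-49, whose peptides promote arousal through the receptor SEB-3, had 33.4, 34.1 and 26.2 CPM in wild type and 35, 44.7 and 45.5 CPM in linc-4 (log2 fold change 0.42, adjusted p = 0.10). The groups of nlp-49 stood apart by a narrow gap between wild type 2 and linc-4 1. nlp-37, also named pdf-2, encodes a pigment dispersing factor; its mean was 19.1 ± 5.64 CPM in wild type and 26.0 ± 0.653 CPM in linc-4 (SD, n = 3 each; adjusted p = 0.13).

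The RPamide genes nlp-2, nlp-22 and nlp-23, known for wakefulness and for quiescence during larval moults, were read very little in these adults. nlp-22, a gene of the RIA neurons that acts in the sleep of moulting larvae, had 0 reads in all 6 libraries, which allows a level up to 0.771 CPM in wild type 1 and up to 0.228 CPM in linc-4 3. nlp-23 had 6 wild type and 11 linc-4 reads, which after scaling for depth is a ratio of 1.06 (exact 95% binomial interval 0.359 to 3.49). nlp-2 passed the filter, with 2, 11 and 20 reads in wild type and 21, 12 and 27 in linc-4, and its interval was the widest of the 61, from -0.66 to 1.36 on the log2 scale (adjusted p = 0.63). These 3 genes and nlp-45 lie next to each other on the - strand of chromosome X, nlp-45 from 2337656 to 2338306, nlp-22 from 2341359 to 2342089 and nlp-23 from 2342458 to 2342967, with nlp-2 starting at 2343947. nlp-45 had 3 wild type and 2 linc-4 reads. The remaining member that was not tested, nlp-67 on another part of chromosome X, had 18 wild type and 36 linc-4 reads (ratio 1.16, interval 0.640 to 2.16); intervals and limits of this kind cover counting error only.

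Other members of known role that were tested and not called were nlp-12, nlp-40, nlp-1, nlp-38 and nlp-47. nlp-12, a cholecystokinin-like gene of the stretch-sensitive DVA neuron that drives locomotion, was at 31.9, 35.2 and 26.3 CPM in wild type and 23.7, 23.6 and 25.4 CPM in linc-4. It was 1 of 3 members whose linc-4 libraries all lay below the wild type ones, with a log2 fold change of -0.35 (SE 0.16, adjusted p = 0.14). nlp-40, released by the intestine to trigger the expulsion step of defecation through the receptor AEX-2, was among the most abundant members, at 319, 179 and 264 CPM against 291, 264 and 247 CPM. Wild type 1 was the highest and wild type 2 the lowest of its 6 libraries, and the log2 fold change was 0.12 (interval -0.29 to 0.52, adjusted p = 0.69). nlp-1, released by the AWC olfactory neurons, was at 11.4 ± 1.61 CPM in wild type and 13.8 ± 0.425 CPM in linc-4 (SD, n = 3 each; adjusted p = 0.32). nlp-38, a myoinhibitory peptide gene of gustatory learning, was at 7.26 ± 0.348 and 8.37 ± 2.67 CPM (adjusted p = 0.60). nlp-47, which resembles gonadotropin-releasing and adipokinetic hormones, was at 12.1, 7.46 and 4.87 CPM in wild type and 12.7, 12.5 and 11.3 CPM in linc-4. Only wild type 1 reached the linc-4 libraries, and nlp-47 did not pass (log2 fold change 0.70, SE 0.26, adjusted p = 0.074).

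Per length, the levels of the nlp genes covered a wide range in wild type, from 0 for nlp-22 to 663 ± 80.2 CPM per kilobase of exon for nlp-36 (SD, n = 3). The next were nlp-77 at 619 ± 36.0 and nlp-40 at 355 ± 98.9 CPM per kilobase, then nlp-17 at 106 ± 23.4, nlp-20 at 101 ± 20.9 and nlp-50 at 72.4 ± 15.9. The order of nlp-36 and nlp-77, and that of nlp-17 and nlp-20, lay within the spread between libraries. Above 100 CPM per kilobase there were 5 members, 34 were between 10 and 100, and 26 were at 10 or below. nlp-36, nlp-77 and nlp-40 made up 55.4% of the summed CPM of all 65 in wild type, a share that counts nlp-77 (now srlf-1) as a member. The called members held places 10 to 61 in this order, so none of the 9 highest was called.

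None of the most abundant members was called. nlp-36 was at 210, 226 and 265 CPM in wild type and 306, 312 and 242 CPM in linc-4 (log2 fold change 0.30, interval -0.03 to 0.62, adjusted p = 0.18). Only linc-4 3 fell within the wild type range. Of its 352 exon bases, 11 are shared with dars-1 on the opposite strand. nlp-77 was at 372, 378 and 413 CPM against 481, 393 and 330 CPM, with overlapping groups and a log2 fold change of 0.04 (interval -0.29 to 0.37). The intervals of nlp-17 (-0.28 to 0.45), nlp-20 (-0.27 to 0.48) and nlp-50 (-0.04 to 0.78) also lay within 2-fold in either direction. Summed over the 62 members without nlp-36, nlp-77 and nlp-40, the level was 681, 784 and 650 CPM in the wild type libraries, against 876, 900 and 914 CPM after the deletion. These sums did not overlap, whereas those of the 3 abundant genes did, with 900, 782 and 942 CPM against 1077, 969 and 820 CPM. Over all 65 members the sums did not overlap either, with 1581, 1566 and 1591 CPM against 1954, 1869 and 1734 CPM.

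**Figure D3:**
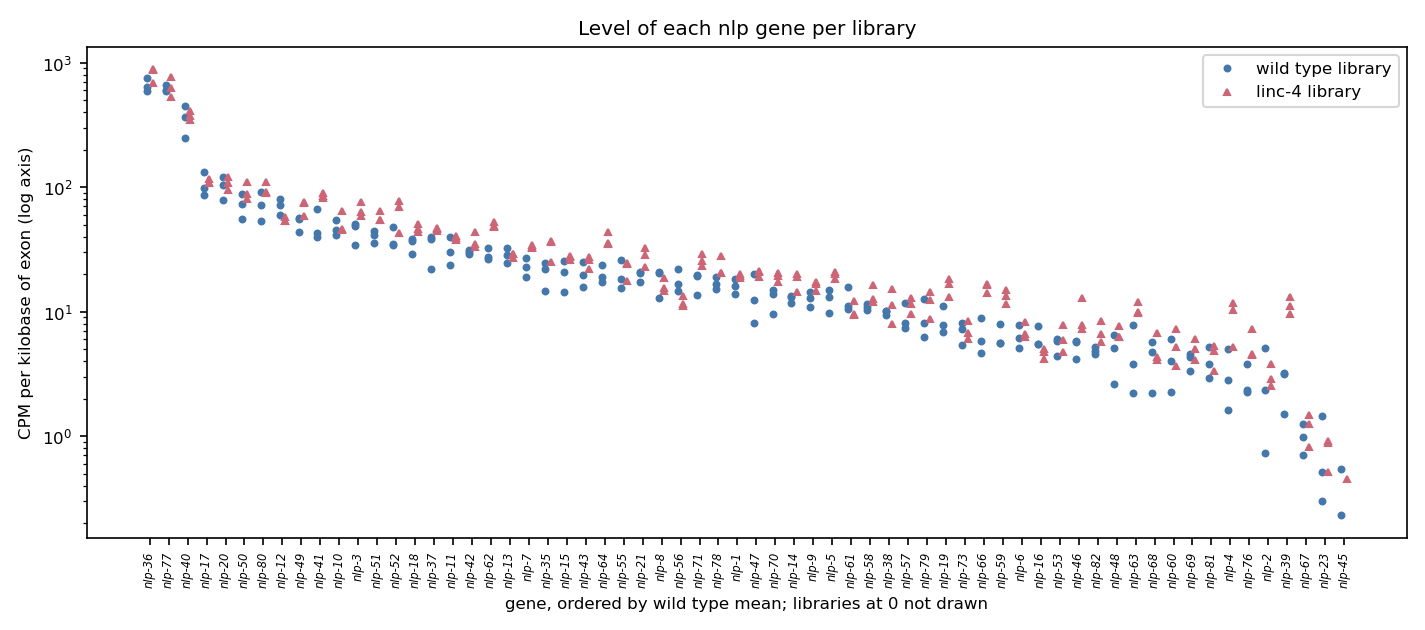
Level of each nlp gene in each library per kilobase of exon (y axis, log scale; circles, wild type; triangles, linc-4), ordered by the wild type mean; nlp-22, with no reads, is left out. nlp-36, nlp-77 and nlp-40 stand above the rest, and the called genes, such as nlp-39 and nlp-66, lie from the tenth place downward.

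Among the 50 tested members without a call, the 3 highest fitted changes were those of nlp-76, nlp-46 and nlp-47. nlp-76 was at 1.54, 2.59 and 1.62 CPM in wild type and 3.07, 3.12 and 4.95 CPM in linc-4 (log2 fold change 0.92, SE 0.34, adjusted p = 0.075). It shares 67 of its 687 exon bases with nhr-17 on the same strand. nlp-46 was at 2.31 ± 0.417 and 4.08 ± 1.35 CPM (adjusted p = 0.12) and shares 88 of its 440 exon bases with T28H10.1 on the opposite strand. T28H10.1 itself rose, with a log2 fold change of 0.92 (adjusted p = 0.021), and reads of the pair cannot be told apart where they overlap unless the counting used strand, which the sources used here do not give. The 3 lowest were nlp-56, nlp-16 and nlp-12, the members whose linc-4 libraries all lay below. nlp-56 was at 11.6, 10.05 and 15.2 CPM in wild type and 9.22, 7.72 and 7.99 CPM in linc-4 (log2 fold change -0.54, SE 0.21, adjusted p = 0.083). It was called lower without wild type 2, the 1 such call in any fit, and 32 of its 690 exon bases are shared with Y57G11C.1130 on the opposite strand. In all, 11 of the tested members share exon bases with another gene. nlp-16, the longest precursor at 326 residues, was at 9.77, 7.0 and 7.04 CPM against 6.40, 5.35 and 6.09 CPM (log2 fold change -0.37, adjusted p = 0.24).

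Separated groups without a call were found in 19 further members with linc-4 above wild type, at log2 fold changes of 0.26 to 0.92 and adjusted p of 0.054 to 0.34. Besides nlp-1, nlp-7, nlp-14, nlp-37, nlp-46, nlp-49 and nlp-76 they were nlp-5, nlp-9, nlp-15, nlp-18, nlp-21, nlp-35, nlp-42, nlp-58, nlp-70, nlp-71, nlp-78 and nlp-82. The nearest to the threshold was nlp-5, at 7.20, 8.22 and 5.41 CPM in wild type and 11.5, 11 and 10.1 CPM in linc-4 (adjusted p = 0.054). nlp-35 followed after nlp-7, at 9.51, 6.39 and 10.6 CPM against 16.0, 15.6 and 10.8 CPM (adjusted p = 0.069). In the remaining 28 members the groups overlapped, with log2 fold changes of -0.28 to 0.70. Those not yet named with values are nlp-6, nlp-10, nlp-11, nlp-13, nlp-43, nlp-48, nlp-52, nlp-53, nlp-55, nlp-57, nlp-60, nlp-61, nlp-68, nlp-69, nlp-73, nlp-79, nlp-80 and nlp-81.

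For 39 of the 50 the 95% interval of the log2 fold change lay inside -1 to 1, so a change of 2-fold or more was outside it. For the other 11, nlp-2, nlp-5, nlp-35, nlp-46, nlp-47, nlp-48, nlp-52, nlp-60, nlp-70, nlp-76 and nlp-82, the interval reached past a 2-fold rise. The SE of the log2 fold change ran from 0.15 to 0.47 over the 61, with a median of 0.21. For comparison with genes of like depth, the members were split by mean count into 3 classes. In the class with the fewest reads (14.5 to 49.2), 5 of 21 rose, beside 12.7% of 3643 genes in that range. Among these 5 are nlp-4, nlp-39 and nlp-63, with fewer than 3 wild type libraries at the floor of the filter. As nlp-39 passed through its linc-4 libraries alone, the share in this class adds no support. In the middle class (50.3 to 131) 3 of 20 rose, beside 13.6%, and in the class with the most reads (132 to 2827) 3 of 20, beside 10.7%. The median log2 fold change of the members was 0.35, 0.39 and 0.39 in these ranges, and that of all genes 0.19, 0.03 and -0.15.

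By chromosome, 3 of 8 tested members on I rose, beside 10% of all genes tested there, 3 of 11 on II, beside 12%, and 4 of 15 on X, beside 8.41%. On V 1 of 10 rose, beside 15.4%, and no member rose among 7 on III, beside 8.15%, or 10 on IV, beside 13.7%. The X chromosome holds 19 of the 65 members, and in 10 of the 15 tested all linc-4 libraries lay above all wild type ones, beside 21.2% of all tested genes on any chromosome. The median log2 fold change was 0.44 for members on X and 0.05 for all 1843 tested genes there. On IV, the lowest, it was 0.21 for members and 0.00 for all 2398 genes. No difference between chromosomes was tested.

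Among 9 tested genes of the enzymes that make active peptides from the precursors, 2 were called higher, pamn-1 and pgal-1. Of all tested genes, 11.5% rose and 7.18% fell, so 2 of 9 is not read as a result about these enzymes. These belong to the amidation step, as does pghm-1, which was not called (19.2 ± 6.48 and 27.9 ± 4.62 CPM, SD, n = 3 each; log2 fold change 0.55, adjusted p = 0.098). pamn-1, a peptidylglycine alpha-amidating monooxygenase gene, rose from 1.55 ± 0.299 to 3.46 ± 0.193 CPM (SD, n = 3 each; 2.23-fold, log2 fold change 1.16, SE 0.31, adjusted p = 0.023). pgal-1, a gene of the amidating lyase, had 34.5, 34.6 and 33 CPM against 49.6, 56.2 and 44.9 CPM, a rise of 1.46-fold (adjusted p = 0.024). The groups of both genes stood apart. Leaving out 1 library ended each of these calls in 4 of 6 fits; the highest adjusted p was 0.069 for pamn-1 (wild type 2 left out) and 0.11 for pgal-1 (linc-4 2 left out). The convertase gene egl-3 and the carboxypeptidase gene egl-21, which act before amidation, had log2 fold changes of 0.23 (adjusted p = 0.47) and 0.07 (adjusted p = 0.79). None of 12 dense core vesicle genes was called, with a median of -0.12. Of 11 receptors known to answer NLP peptides 6 were tested and none was called; the highest change was that of seb-3, the receptor of nlp-49 peptides, at 2.82 ± 0.920 and 4.91 ± 0.776 CPM (adjusted p = 0.079).

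Genes used in all neurons gave no call, beside 18.7% of all tested genes called in either direction. Of 15 such pan-neuronal genes, 8 had a log2 fold change above 0, and the median was 0.13; the difference from the nlp genes was not tested. Their summed level was 824 to 1199 CPM in wild type and 754 to 821 CPM in linc-4, none was at 0, and snb-1 and tbb-1 made up 82.2% of it in wild type. Without those, the sum was 172 to 179 CPM in wild type and 172 to 181 CPM in linc-4. In RNA of whole worms, fewer cells of a type and less RNA per cell cannot be told apart. Of 30 tested FMRFamide-like (flp) genes, another large neuropeptide family, 8 rose and none fell, with a median log2 fold change of 0.31 and 26 above 0. Of 25 tested insulin-like (ins) genes 5 rose and none fell, with a median of 0.43 and 19 above 0. Of 10 tested members of the epidermal nlp-24 to nlp-34 group 7 rose and none fell, with a median of 0.93. Among all tested genes, 11.5% rose, 7.18% fell and 48.8% had a log2 fold change above 0.

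The make-up of the libraries moved in the same comparison, in which 11.5% of all tested genes rose and 7.18% fell. All 6 oocyte markers fell, and their summed level was 1350 to 1614 CPM in wild type and 835 to 897 CPM in linc-4. Of 5 tested sperm markers 3 rose, with a sum of 40.8 to 60.7 CPM over 6 genes in wild type and 77.5 to 92.1 CPM in linc-4. Of 6 embryo markers 1, sdz-19, was tested and fell, from a mean of 7.80 to 2.48 CPM. The sums over the 6 were 7.46 to 11.9 and 4.42 to 7.43 CPM, and most of the wild type sum was sdz-19. The untested embryo markers had few wild type and linc-4 reads: end-1 13 and 19, end-3 2 and 9, hlh-27 4 and 10. tbx-37 had 15 and 38, and med-1 0 and 5, with the linc-4 libraries 1.73 times as deep. A fall of embryo markers as a set is not shown. Body wall muscle markers had 1 rise among 6 tested, unc-27, from a mean of 440 to 723 CPM. Their sums were 1295 to 1501 and 1603 to 1676 CPM. Of the 6, 3 had a log2 fold change above 0, and the median was 0.04, so the higher sum is not read as a rise of the list. Intestine markers had 1 rise among 5, ges-1, and sums that overlapped. Epidermis markers had no call among 6, with sums of 236 to 265 and 265 to 280 CPM. The highest of these markers was rol-6, at means of 123 and 154 CPM. Of the 6, 3 had a log2 fold change above 0, and the median was 0.04. No listed marker was at 0 in all libraries. The part of these differences in the levels of the nlp genes was not tested.

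**Figure D4:**
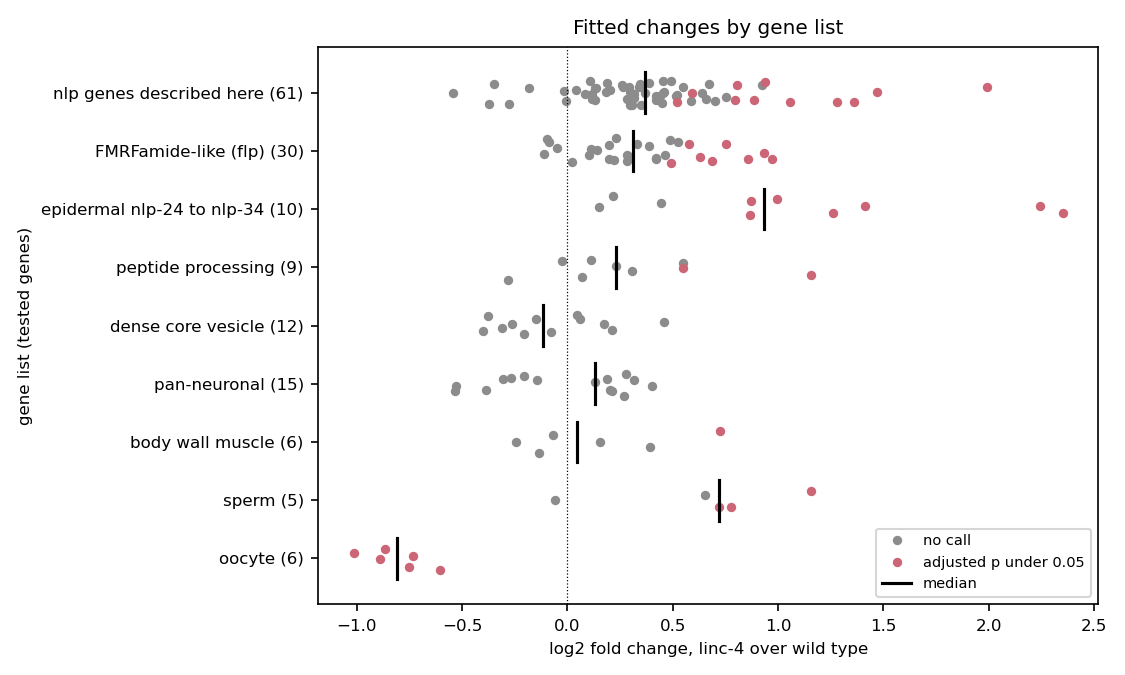
Fitted log2 fold change of each tested gene by gene list (x axis, linc-4 over wild type; red, adjusted p under 0.05; black bar, median of the list; number of tested genes in parentheses). The nlp genes centre on 0.37 and the flp genes on 0.31, while pan-neuronal genes centre on 0.13 with no call and oocyte genes lie below 0.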

How the data were processed

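The authors' tools, per the submitters' processing notes, included DESeq2 1.22.2, HTSeq 0.12.4, TopHat2 2.1.1 and cutadapt 2.10, on build WBcel235; their settings and the strandedness were not stated there. The deposited table gives raw counts per gene, the authors' counts divided by 1 size factor per library, and the authors' log2 fold changes, scores and p-values; a question mark was read as no value. Because of these marks the count columns could not be registered as counts, and limma-voom (limma 3.58.1, R 4.3.3) was used on them in place of a count model. A gene was tested if at least 3 libraries reached the CPM that 10 reads give in a library of median size, with 15 reads in all, which kept 99.7% to 99.8% of reads. Scaling was TMM, trimming 30% by log ratio and 5% by abundance. The fit compared 3 libraries with 3, two-sided. It was also run on simulated counts in which every gene had the same relative spread between libraries. That setting is simpler than these data, so the run does not check the calls given here. Levels per kilobase use the union of Ensembl release 115 exons, whose gene spans equal those of the table for 16 of 65 members and differ by up to 502 bases. Reads of 3 were taken as the limit for a count of 0. Within each group, libraries differed beyond counting noise (chi-square per degree of freedom 4.91 to 19.5). No label names separate cultures, so p-values measure only the spread between these libraries.

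The members and gene lists were chosen with earlier results of these data known. Members are named if called, among the 6 highest per kilobase, among the 3 highest or lowest uncalled changes, of known role or below the filter; the rest are named by class. Alternatives were other scalings and filters, limma-trend, a replicate block, leaving out each library (with the same genes tested), a 2-fold minimum, longest transcripts for length and the authors' deposited table. Removing members that share exon bases, removing nlp-73 and nlp-77 (of the 6 renamed members, those whose new names no longer mark a peptide gene with certainty), and the pan-neuronal sum without snb-1 and tbb-1 were chosen after seeing the data. opt-2, of the intestine list, was not matched by name.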

Additional observations from a re-analysis of the deposited data

How the results depend on the processing

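The 11 nlp genes called higher became 22 with upper-quartile scaling, 7 with a replicate block, 5 with a log2 fold change of at least 1 and 7 in the authors' deposited table, and 3 to 14 when 1 library was left out. The share of all tested genes called higher was 15% with upper-quartile scaling, 8.78% with the block and 5.84% at that size. It was 6.59% in the authors' table. With 1 library left out it was 5.49% in the fit with 3 members and 12% in that with 14. Members called lower were 0 to 1 in those fits. The median log2 fold change of all tested members, called or not, was 0.48 with upper-quartile scaling and 0.31 to 0.47 with 1 library left out. Over all genes, 757 to 1653 were higher and 191 to 1213 lower with 1 library left out; those lower were 476 with upper-quartile scaling, 652 without a filter on low counts and 504 with the replicate block. Apart from the scaling itself and the smaller number of libraries, the cause was not tested. Other settings gave 10 to 12 calls, beside 7.33% to 12.5% of all tested genes. Under median-of-ratios scaling and either other filter, 10 of the 11 were shared. Of 132 refits of single called members, 96 kept the call and 36 lost it. The kept calls include those of nlp-39, which was tested through its linc-4 libraries alone. No refit changed sign, but the groups of all 11 did not overlap, so leaving out 1 library could hardly have done so. The same 6 genes were highest per kilobase by longest transcript. Without the 11 members that share exon bases with another gene 10 of 50 rose, and without nlp-73 and nlp-77 all 11 calls stayed. Beside these counts, 11.5% of all 13778 tested genes rose, a share not split by shared exon bases.

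The replicate numbers were not taken as pairs: deviations of same-numbered libraries correlated at 0.0857, -0.0923 and -0.344, and of the wild type libraries only wild type 1 correlated best with its own number. The block ended the calls of nlp-3 (adjusted p = 0.085), nlp-19 (0.055), nlp-51 (0.11) and nlp-63 (0.06), and those of pamn-1 (0.053) and pgal-1 (0.057), all by limma-voom. With too few reads for the filter, 4 members were not tested.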
